A study of Mus musculus with 4 samples.

Results

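Histone genes encode the proteins around which DNA is wrapped in nucleosomes. Regions listed as accessible in hippocampal neurospheres, grown with and without Fgf13, lay near the start sites of 43 histone genes. They were taken by name from a table of accessible regions: every region within 1000 bases of a start site whose nearest gene is called Hist1h to Hist4h, H1f, H2af or H3f3 was kept, and the tags of a gene's regions were summed. This gave 45 regions, of 29121 in the table, for 43 of the 11163 genes with a region in that window. Of these genes, 34 carry a clustered replication name (Hist) and 9 are variant genes outside those names. A filter on low counts left 40 of them, 31 clustered and 9 variant, among 11117 tested genes.

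The assay of transposase-accessible chromatin (ATAC-seq) was run on 4 neurosphere cultures, which are floating clusters of neural progenitors. They came from the hippocampus of newborn (P0) C57BL/6 mice and were kept for 7 days with FGF-2 and EGF at 20 ng/ml each. The 2 Fgf13cko cultures had the genotype hGFAPCre+, Fgf13 flox/y, and the 2 control cultures were hGFAPCre+, Fgf13+/y. The Cre transgene was thus in both groups, on the human GFAP promoter, which is active in radial glial progenitors, and Fgf13 is X-linked, so each male has 1 copy. Its product is a non-secreted relative of the FGFs, a partner of sodium channels and of microtubules. Whether the 2 cultures of a group stem from different animals is not in the labels, and the p-values therefore reflect the spread between these samples only, part of which may be technical. In such bulk cultures, fewer cells with an open promoter and less access per cell cannot be told apart.

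The libraries held 16.8 and 13.1 M tags in all in Fgf13cko 1 and 2, against 24.9 and 26.0 M in control 1 and 2. The nuclear regions held 2.55 and 2.63 M tags in Fgf13cko 1 and 2, and 2.78 and 3.25 M in control 1 and 2. These regions thus took a larger share of all tags in both Fgf13cko libraries. The part of depth and of this share in the fold changes was not tested. Mitochondrial regions took 9.54% and 9.19% of all tags in Fgf13cko, against 23.4% and 27.0% in controls, and were left out of the gene sums. The Fgf13 promoter had 207 and 163 normalised tags in Fgf13cko and 190 and 183 in controls (adjusted p = 0.985). The labels do not name the deleted part, so this does not check the genotype. Of the promoters of 10 neural progenitor markers 9 were measured, Sox2, Nes and Pax6 among them, as were 4 of 7 neuronal, 3 of 5 astrocyte, 4 of 6 oligodendrocyte and 1 of 5 microglial ones. Over all tested promoters 226 rose (2.03%) and 57 fell (0.513%), together 2.55%. The median log2 fold change of all genes, Fgf13cko over control, was -0.01.

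Cells use histone genes in 2 ways. The clustered genes sit in a few loci, lack introns and are transcribed mainly in S phase, when new DNA needs packaging, and their mRNAs end in a stem-loop in place of a poly(A) tail. The variant genes stand alone, are transcribed outside S phase too, and their products replace the clustered forms at particular sites: H3.3 and H2A.Z at active promoters, H2A.X where DNA breaks are marked. In neural progenitors, which divide, both kinds are in use, while neurons that no longer divide depend on the variants for new histone.

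The promoters of clustered genes are textbook examples of short, motif-defined promoters, and those of most variant genes are rich in G and C. The following promoters, 250 bases before to 50 after the start site, are from RefSeq on GRCm38.p6 and belong to the genes on which the results turn. Capitals mark matches, on either strand, to the octamer ATTTGCAT, the TATA box TATAAA, the CCAAT box, the H4 site II GGTCCG and the Sp motif GGGCGG, where neighbouring Sp matches may overlap. The first 3 are the variants H2afj (chr6:136807998-136808297, plus strand), H3f3a (chr1:180813556-180813855, minus) and H3f3b (chr11:116024455-116024754, minus). The next 4 are clustered genes: Hist4h4 (chr6:136804382-136804681, minus), the neighbour of H2afj, Hist1h3b (chr13:23752095-23752394, plus), Hist1h2bb (chr13:23746484-23746783, plus) and Hist1h2ak (chr13:21753863-21754162, minus), which is 1 side of a divergent H2A and H2B pair. The last, H2bc23 (chr13:21810150-21810449, minus), stands in lower case throughout because it is shown for its repetition elsewhere in the genome.
H2afj: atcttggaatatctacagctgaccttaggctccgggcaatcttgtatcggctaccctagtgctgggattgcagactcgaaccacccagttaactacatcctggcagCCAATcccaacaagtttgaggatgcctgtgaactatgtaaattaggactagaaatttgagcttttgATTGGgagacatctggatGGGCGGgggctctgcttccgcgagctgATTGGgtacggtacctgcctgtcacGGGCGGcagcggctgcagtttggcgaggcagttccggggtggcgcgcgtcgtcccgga
H3f3a: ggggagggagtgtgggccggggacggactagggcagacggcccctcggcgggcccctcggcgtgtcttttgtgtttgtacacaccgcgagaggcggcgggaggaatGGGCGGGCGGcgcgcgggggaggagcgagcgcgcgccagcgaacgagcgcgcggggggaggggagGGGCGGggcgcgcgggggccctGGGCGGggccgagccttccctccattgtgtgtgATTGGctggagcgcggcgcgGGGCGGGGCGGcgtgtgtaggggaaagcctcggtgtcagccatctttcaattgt
H3f3b: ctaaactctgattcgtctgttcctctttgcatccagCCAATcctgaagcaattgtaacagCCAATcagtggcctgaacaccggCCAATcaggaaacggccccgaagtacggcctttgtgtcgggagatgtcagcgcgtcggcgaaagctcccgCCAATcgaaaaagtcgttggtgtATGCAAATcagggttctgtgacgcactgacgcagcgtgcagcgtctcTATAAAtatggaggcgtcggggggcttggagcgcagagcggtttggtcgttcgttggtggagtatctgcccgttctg
Hist4h4: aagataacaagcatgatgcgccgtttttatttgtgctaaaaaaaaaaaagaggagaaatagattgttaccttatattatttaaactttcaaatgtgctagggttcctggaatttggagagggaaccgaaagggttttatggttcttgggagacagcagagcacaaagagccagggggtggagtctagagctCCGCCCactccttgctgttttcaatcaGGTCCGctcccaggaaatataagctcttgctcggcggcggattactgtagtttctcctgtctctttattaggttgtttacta
Hist1h3b: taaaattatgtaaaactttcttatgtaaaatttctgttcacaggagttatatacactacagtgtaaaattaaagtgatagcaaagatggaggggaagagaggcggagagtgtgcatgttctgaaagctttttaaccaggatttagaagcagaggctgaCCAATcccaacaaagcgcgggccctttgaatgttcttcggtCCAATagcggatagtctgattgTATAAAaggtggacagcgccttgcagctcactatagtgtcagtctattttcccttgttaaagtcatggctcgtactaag
Hist1h2bb: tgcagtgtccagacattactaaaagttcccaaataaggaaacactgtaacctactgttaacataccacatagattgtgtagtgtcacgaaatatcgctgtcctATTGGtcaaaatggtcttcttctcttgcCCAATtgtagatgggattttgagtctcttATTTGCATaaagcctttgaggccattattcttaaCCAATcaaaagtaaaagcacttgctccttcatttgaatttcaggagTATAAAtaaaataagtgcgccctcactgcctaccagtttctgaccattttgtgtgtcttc
Hist1h2ak: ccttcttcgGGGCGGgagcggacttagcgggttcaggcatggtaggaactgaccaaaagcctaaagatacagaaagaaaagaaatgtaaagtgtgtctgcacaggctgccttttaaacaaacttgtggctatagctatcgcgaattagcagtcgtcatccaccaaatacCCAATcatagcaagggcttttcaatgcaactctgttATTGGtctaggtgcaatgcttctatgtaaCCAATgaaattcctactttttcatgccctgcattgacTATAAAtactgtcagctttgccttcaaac
H2bc23: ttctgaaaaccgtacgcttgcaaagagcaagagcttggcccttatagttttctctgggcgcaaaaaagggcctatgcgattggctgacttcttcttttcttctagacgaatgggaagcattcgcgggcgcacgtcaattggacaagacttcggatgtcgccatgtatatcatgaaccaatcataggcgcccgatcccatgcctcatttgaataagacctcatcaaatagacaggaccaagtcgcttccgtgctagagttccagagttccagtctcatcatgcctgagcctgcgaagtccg

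In these sequences TATAAA begins at -29 from the start site in Hist1h3b and at -27 in H3f3b. It begins at -10 in Hist1h2bb and at 21, past the start site, in Hist1h2ak, so its place relative to the annotated start site varied. Whether the annotated start sites are exact was not tested. H2afj and H3f3a have CCAAT boxes and Sp motifs and no TATAAA. The octamer of Hist1h2bb, a site for the POU factor Oct-1, begins at -90, and the site II of Hist4h4, which the zinc finger factor HiNF-P binds in H4 genes, begins at -32. Sequences were held for 28 tested clustered and 8 tested variant genes and for 8869 tested genes in all. Matches were counted on both strands and at any place in the window. TATAAA stood in 53.6% of the clustered promoters, 12.5% of the variant ones (H3f3b alone) and 6.39% of all. CCAAT stood in 89.3% of clustered and 75% of variant promoters, against 39.5% of all, and ATTTGCAT in 25%, 12.5% and 1.49%. The E2F motif (GCGCGAAA or GGCGGGAA) stood in 25% of clustered, 0% of variant and 4.98% of all promoters, and the CRE motif TGACGTCA in 10.7%, 0% and 3.53%. GGGCGG ran the other way, with 35.7% of clustered promoters against 75% of variant and 68.4% of all. GGTCCG stood in 21.4%, 37.5% and 15.7%. The median GC content was 45.7% in clustered, 68.5% in variant and 62% in all tested promoters.

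The motifs followed the histone type. Among the clustered start sites in RefSeq, ATTTGCAT stood in 7 of 18 H2A and 7 of 17 H2B promoters and in 0 of the H1, H3 and H4 promoters. GGTCCG stood in 11 of 12 H4 promoters. CCAAT stood in all 6 H1, 18 H2A, 17 H2B and 10 H3 promoters but in 3 of 12 H4 promoters. The windows of divergent H2A and H2B pairs can overlap, so 1 match may be counted under both types, and their counts are not independent. A match is a description of the letters in this window and not a bound site.

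The 2 classes of histone genes lay on opposite sides of the other promoters in Fgf13cko cultures. Over the 31 clustered genes the median log2 fold change was 0.29, with 25 positive and 6 negative values from -0.77 to 0.65. The 9 variant genes had a median of -0.24, with values from -0.68 to 0.00. No member passed the test on its own: 0 of 40 were called by edgeR, against 2.55% of all genes, and 0 by DESeq2, which called 1.76% of the genes to which it gave an adjusted p. At an unadjusted p under 0.05, 9 clustered genes were higher and 0 lower, and 0 variant genes were higher and 2 lower, against 11.8% of all genes higher and 7.58% lower.

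Library by library, the values split in the same way. Both Fgf13cko values lay above both control values for 16 of 31 clustered genes, against 26.2% of all genes, and below them for 3. Among variant genes 0 of 9 lay above and 5 lay below, against 25% of all genes below. Relative to each gene's own mean over the libraries, the median clustered promoter stood at 0.16 and 0.12 on the log2 scale in Fgf13cko 1 and 2 and at -0.18 and -0.10 in control 1 and 2. The median variant promoter stood at -0.28 and -0.04 in Fgf13cko and at 0.19 and 0.08 in controls. Fgf13cko 1 lay farther from the controls than Fgf13cko 2 for the variants. Without Fgf13cko 1 the variant median was -0.14, and without Fgf13cko 2 it was -0.38. The clustered median stayed between 0.25 and 0.33 when any 1 library was left out.

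**Figure D1:**
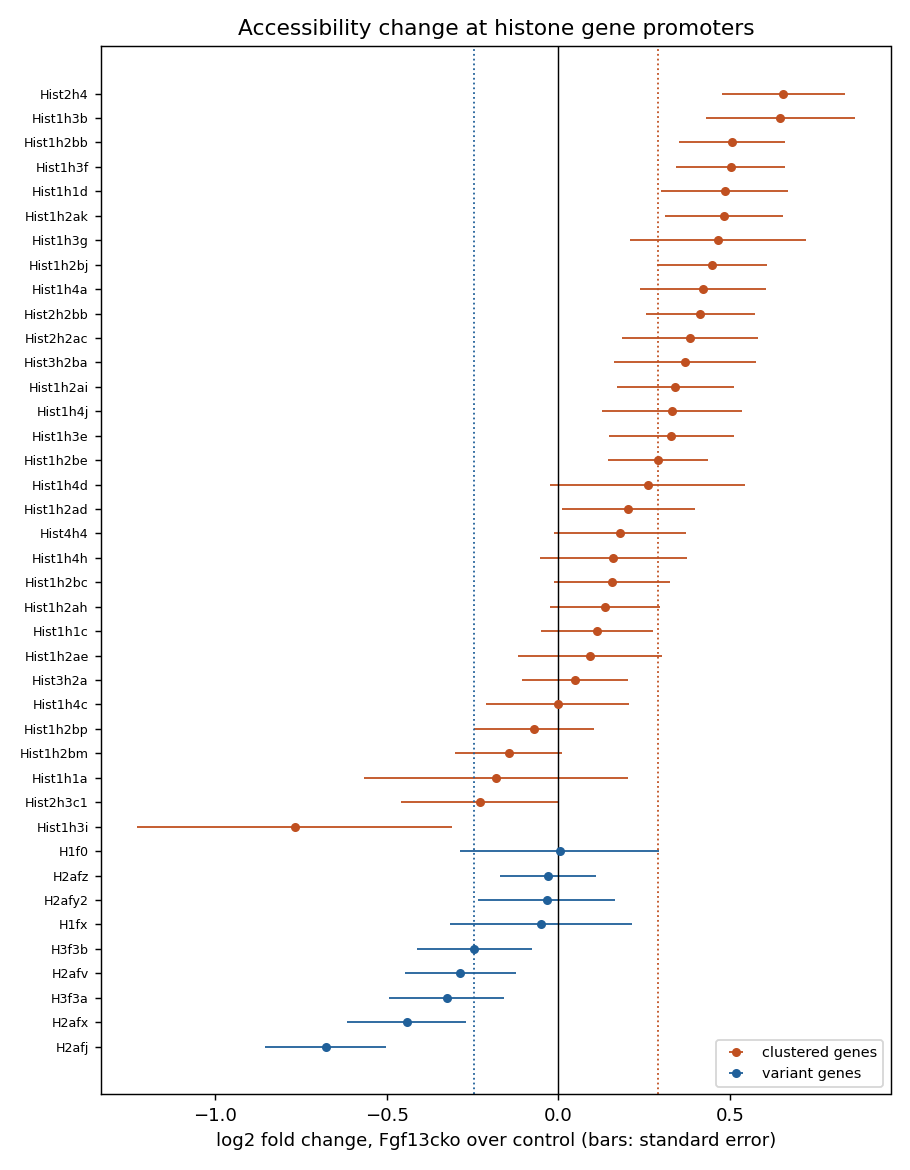
Log2 fold change, Fgf13cko over control, of the promoter of each of the 40 tested histone genes, with clustered genes above (orange) and variant genes below (blue). Bars are standard errors and dotted lines the class medians, 0.29 and -0.24. Most clustered genes lie right of 0, and 8 of 9 variant genes lie left of it.

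**Figure D2:**
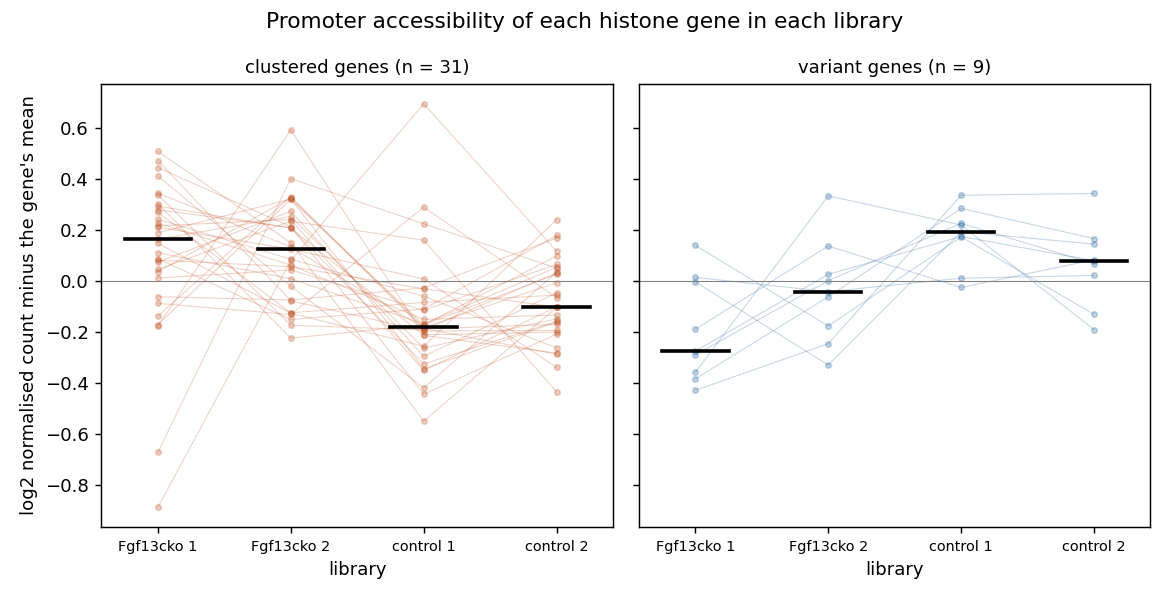
Log2 normalised count of each promoter minus that gene's mean, in Fgf13cko 1 and 2 and control 1 and 2, for clustered genes (left) and variant genes (right). Each thin line is 1 gene and each black bar the class median, which for clustered genes is 0.16 and 0.12 in Fgf13cko and -0.18 and -0.10 in controls.

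The ratio of the classes within a library needs no scaling between libraries. Clustered promoters held 4572 and 4118.5 tags in Fgf13cko and 4028 and 5129.5 in controls. Variant promoters held 1179.5 and 1204 tags in Fgf13cko and 1679 and 1867.5 in controls. The ratio of clustered to variant tags was therefore 3.88 and 3.42 in Fgf13cko, against 2.40 and 2.75 in controls, and the groups did not overlap. Per M promoter tags the clustered sum was 3189 and 3078 in Fgf13cko, against 2536 and 2713 in controls. The variant sum was 823 and 900 in Fgf13cko, against 1057 and 988 in controls. Together the histone genes took 0.401% and 0.398% of all promoter tags in Fgf13cko, against 0.359% and 0.370% in controls, a higher share in both Fgf13cko libraries.

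Per length, the variant promoters were the more open class in controls. The median was 129 normalised tags per kb for variant genes in Fgf13cko and 175 in controls. For clustered genes it was 109 in Fgf13cko and 92.0 in controls, and for all tested genes 99.8 in Fgf13cko and 98.0 in controls. The gap between the classes was thus narrower in Fgf13cko. The highest level per kb was at H2afv, with 255 in Fgf13cko and 311 in controls.

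Among variant H2A genes, all 5 had a negative log2 fold change, with a median of -0.29. H2afj encodes H2A.J, a variant that in human cells accumulates in senescent fibroblasts. Its promoter had 95.6 and 109 normalised tags in Fgf13cko 1 and 2, against 163 and 164 in control 1 and 2 (log2 fold change -0.68, SE 0.18, adjusted p = 0.0637). This was the most negative of the variant genes, and both Fgf13cko libraries lay well below both controls. When single regions were tested in place of gene sums, the H2afj region (chr6:136807928-136808713) passed and fell in Fgf13cko (log2 fold change -0.74, SE 0.18, adjusted p = 0.0430). That region was 1 of the 9 variant regions. In that fit 8.02% of all tested regions passed, 1824 higher and 487 lower. Of the 11453 tested regions within 1000 bases of a start site, 162 passed higher and 86 lower. Their median log2 fold change was -0.07. The gene sum passed when a loess offset replaced TMM scaling (-0.72, adjusted p = 0.0435) and when genes under a mean of 50 counts were dropped (-0.69, adjusted p = 0.0453). It did not pass by DESeq2 (-0.68, adjusted p = 0.293) or by edgeR with library size scaling (-0.69, adjusted p = 0.0581). Its value was -0.59 without Fgf13cko 1, -0.77 without Fgf13cko 2 and -0.68 without control 1 or control 2.

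H2afx encodes H2A.X, which is phosphorylated at DNA breaks. Its promoter had 120 and 150 normalised tags in Fgf13cko, against 191 and 176 in controls (log2 fold change -0.44, SE 0.17, adjusted p = 0.184). The groups did not overlap, and the value was -0.29 without Fgf13cko 1 and -0.61 without Fgf13cko 2. H2afv and H2afz encode the 2 forms of H2A.Z, found at active promoters. H2afv had 181 and 222 in Fgf13cko, against 259 and 232 in controls (-0.29, adjusted p = 0.359). Its value was -0.14 without Fgf13cko 1 and -0.44 without Fgf13cko 2. H2afz had 372 and 358 in Fgf13cko and 372 and 374 in controls (-0.03, adjusted p = 0.941). The forms of H2A.Z thus had unlike values, with H2afz nearly equal in all 4 libraries. H2afy2 encodes macroH2A2, an H2A with a large added domain, and had 127 and 102 in Fgf13cko and 130 and 105 in controls (-0.03, adjusted p = 0.954).

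Both genes of H3.3, the H3 variant placed outside S phase, were on the lower side. H3f3a had 181 and 144 normalised tags in Fgf13cko, against 208 and 201 in controls (log2 fold change -0.33, SE 0.17, adjusted p = 0.308). H3f3b had 143 and 177 in Fgf13cko, against 196 and 183 in controls (-0.24, adjusted p = 0.454). In each case both Fgf13cko values lay below both controls, although by little for H3f3b. H3f3a had -0.50 without Fgf13cko 1 and -0.17 without Fgf13cko 2. H3f3b had -0.099 without Fgf13cko 1 and -0.40 without Fgf13cko 2. The linker variants H1f0, which accumulates in differentiated cells, and H1fx had groups that overlapped. H1f0 had 45.6 and 74.0 in Fgf13cko and 68.3 and 51.2 in controls (0.00, adjusted p = 0.997), and its sign was negative with RLE or library size scaling. H1fx had 47.8 and 60.1 in Fgf13cko and 53.6 and 57.9 in controls (-0.05, adjusted p = 0.948).

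**Figure D3:**
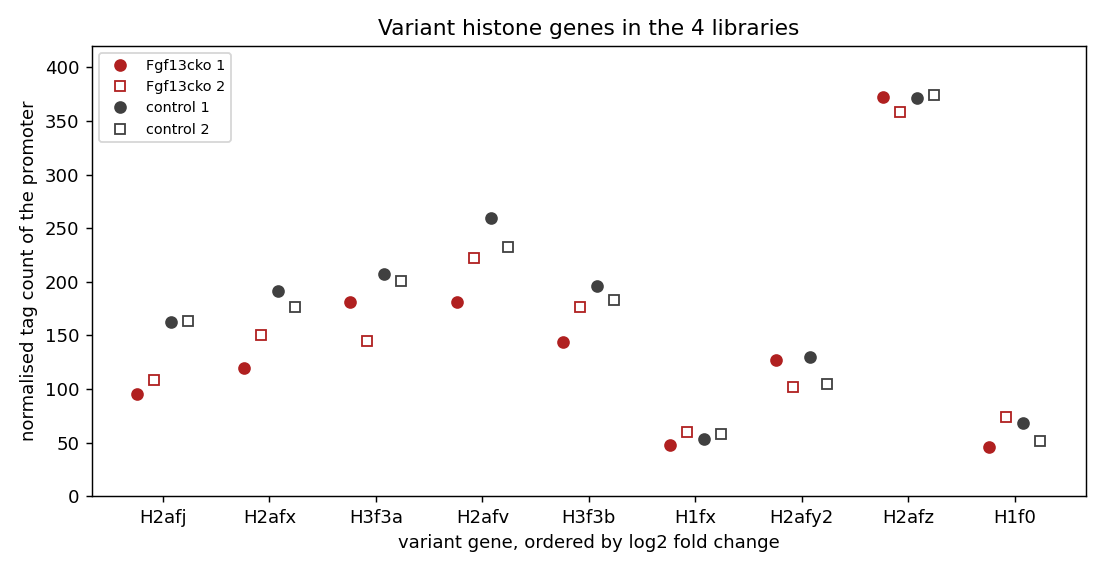
Normalised tag count of the promoter of each of the 9 variant histone genes in Fgf13cko 1 and 2 (red) and control 1 and 2 (grey), ordered by log2 fold change. H2afj has 95.6 and 109 in Fgf13cko against 163 and 164 in controls, and the groups of the 4 genes at the right overlap.

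Clustered genes of every type had a median above 0. It was 0.11 for 3 H1 genes, 0.20 for 7 H2A, 0.33 for 8 H2B, 0.40 for 6 H3 and 0.26 for 7 H4 genes. All 7 sums named for a clustered H2A gene were positive, and all 5 variant H2A genes were negative. A name covers part of a region only: the Hist1h2bp region, which also covers the H2A gene H2ac22, had -0.13 in the region test, and a Hist2h3c1 region, which also covers H2ac18, had -0.52. By place, the median was 0.27 for 24 genes on chromosome 13, 0.40 for 4 on chromosome 3, 0.21 for 2 on chromosome 11 and 0.18 for Hist4h4 on chromosome 6. The other promoters of these chromosomes had medians of 0.00, 0.01, -0.05 and 0.02. Within the chromosome 13 histone locus, 6 promoters of other genes had a median of -0.12 and 0 were called.

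The most positive clustered genes were an H4 and an H3 gene. Hist2h4, on chromosome 3, had 190 and 162 normalised tags in Fgf13cko, against 102 and 121 in controls (log2 fold change 0.65, SE 0.18, adjusted p = 0.0741). Hist1h3b had 147 and 114 in Fgf13cko, against 70.2 and 95.9 in controls (0.65, SE 0.22, adjusted p = 0.128). Both had wholly separate groups, with a wider spread at Hist1h3b. Hist1h2bb, an H2B gene, had 245 and 268 in Fgf13cko, against 169 and 192 in controls (0.51, SE 0.16, adjusted p = 0.104). Hist1h3f had 201 and 190 in Fgf13cko, against 141 and 135 in controls (0.50, adjusted p = 0.113). Hist1h1d, a linker H1 gene, had 132 and 126 in Fgf13cko, against 86.8 and 97.5 in controls (0.48, adjusted p = 0.175). In each of these 5 genes both Fgf13cko libraries were above both controls. Without Fgf13cko 2 the values were 0.76 at Hist2h4, 0.81 at Hist1h3b, 0.44 at Hist1h2bb and 0.54 at Hist1h3f. Without Fgf13cko 1 they were 0.53, 0.45, 0.57 and 0.46.

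Hist1h2bb was also among the 5 clustered promoters with the highest counts. Of the others, Hist1h2be had 352 and 314 normalised tags in Fgf13cko, against 271 and 274 in controls (log2 fold change 0.29, adjusted p = 0.300). Hist1h4a had 334 and 228 in Fgf13cko, against 210 and 210 in controls (0.42, adjusted p = 0.230), with the excess mostly in Fgf13cko 1. Its value was 0.12 without Fgf13cko 1 and 0.67 without Fgf13cko 2, while Hist1h2be had 0.21 and 0.37. Hist1h2bc had 257 and 195 in Fgf13cko and 201 and 205 in controls (0.16, adjusted p = 0.656), so its groups overlapped and the value was -0.055 without Fgf13cko 1.

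A few clustered genes were on the lower side, with both Fgf13cko values below both controls in 3 of them. Hist1h3i had 13.3 and 26.6 normalised tags in Fgf13cko, against 41.0 and 27.3 in controls (log2 fold change -0.77, adjusted p = 0.388), in a region of 342 bases. Its value was -0.34 without Fgf13cko 1, -0.45 without control 1 and -1.33 without Fgf13cko 2. Hist2h3c1 had 66.7 and 64.7 in Fgf13cko, against 86.8 and 67.8 in controls (-0.23, adjusted p = 0.629), and 0.17 with regions within 500 bases only. Without control 1 it had -0.045 and without control 2 -0.41. Hist1h1a had 23.3 and 49.7 in Fgf13cko and 43.9 and 38.8 in controls (-0.18, adjusted p = 0.846). The spread at Hist1h1a within Fgf13cko was wider than the gap between groups. Hist1h2bm had 192 and 191 in Fgf13cko, against 197 and 226 in controls (-0.14, adjusted p = 0.658; -0.24 without control 1 and -0.047 without control 2), and Hist1h2bp had 175 and 148 in Fgf13cko and 152 and 186 in controls (-0.07, adjusted p = 0.870).

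Hist4h4 and H2afj are neighbours on chromosome 6 whose regions lie 3156 bases apart, 1 from each class. This pair was chosen after its values were seen. Hist4h4 held 184 and 124 tags in Fgf13cko, against 145 and 199.5 in controls. H2afj held 85.5 and 93.5 tags in Fgf13cko, against 167 and 198 in controls. The ratio of Hist4h4 to H2afj was 2.15 and 1.33 in Fgf13cko, against 0.868 and 1.01 in controls. The ratio was higher in both Fgf13cko libraries than in either control, with a wide gap between the 2 Fgf13cko values. By itself Hist4h4 had 205 and 143 normalised tags in Fgf13cko and 141 and 165 in controls. Those groups overlapped (log2 fold change 0.18, adjusted p = 0.654 by edgeR), so the difference in ratio came mainly from H2afj. The tags of the pair come from regions of 1281 and 786 bases, so the ratio does not rank the pair by openness. Per kb, Hist4h4 had a mean of 136 normalised tags in Fgf13cko and 120 in controls, and H2afj had 130 in Fgf13cko and 208 in controls.

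**Figure D4:**
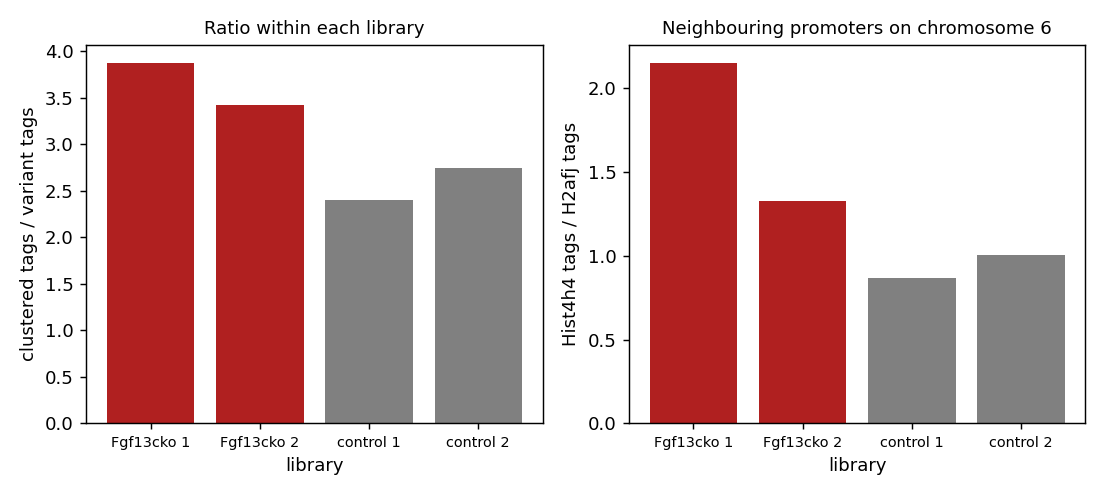
Left, summed tags of clustered histone promoters divided by those of variant promoters in each library, 3.88 and 3.42 in Fgf13cko (red) against 2.40 and 2.75 in controls (grey). Right, the ratio of tags, not scaled for region length, for the neighbours Hist4h4 and H2afj, 2.15 and 1.33 in Fgf13cko against 0.868 and 1.01 in controls.

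Region length and base composition moved with the result. Clustered regions were long, with a median of 1351 bases per gene, against 957 for variant genes and 1012 for all. Over all genes the median log2 fold change was -0.22 in the shortest length quartile (up to 813 bases), -0.02 and 0.03 in the middle ones and 0.12 in the longest (over 1335 bases). Of the clustered genes 16 were in the longest quartile, with a median of 0.40, and 8, 3 and 4 in the others from long to short, with medians of 0.09, 0.16 and 0.04. Of the variant genes 4 were in the shortest quartile, with a median of -0.17, and 3 in the longest, with a median of -0.03. The clustered medians lay above those of all genes in each length quartile, and the variant medians below them except in the shortest, where the variant median was the higher. By the observed over expected ratio of CpG, the median of all genes was 0.12 in the quartile with the lowest ratio and -0.02, -0.03 and -0.05 in the others. There the clustered genes had medians of 0.18 (11 genes), 0.37 (5), 0.33 (5) and 0.29 (7), and the variant genes had -0.03 in the second quartile (3 genes) and -0.24 in the top one (5 genes). The part of length and composition in the result was not tested.

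**Figure D5:**
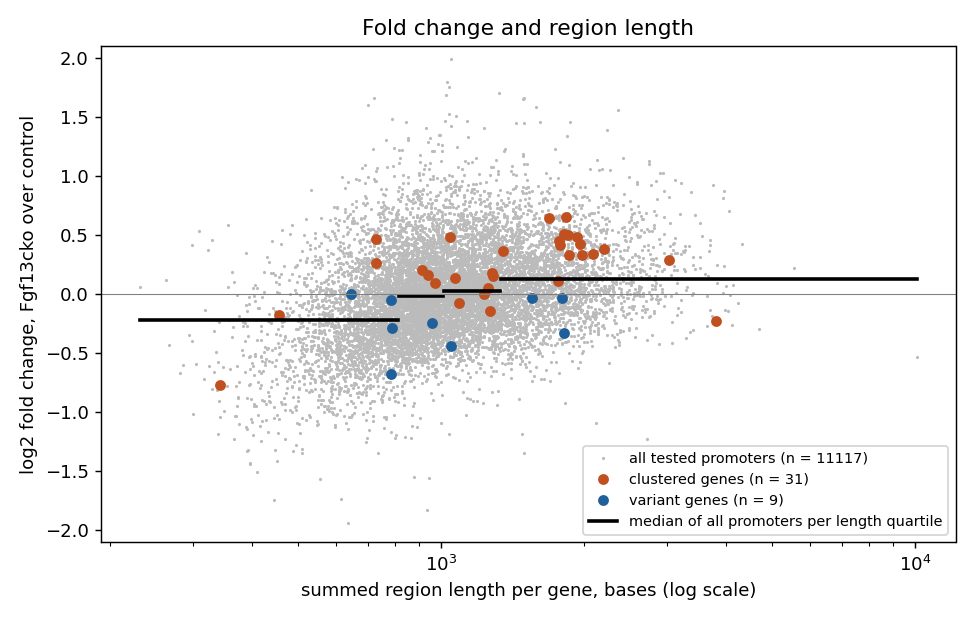
Log2 fold change, Fgf13cko over control, against the summed region length per gene (log scale) for all 11117 tested promoters (grey), clustered (orange) and variant histone genes (blue). Black lines are the medians of all promoters per length quartile, from -0.22 to 0.12, and most clustered genes lie above them.

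A count under 1 gene name can belong to several genes. Histone genes of a cluster often lie back to back and share the stretch between their start sites. Of the 45 regions, 16 covered 2 or more annotated histone start sites, 25 covered 1 and 4 covered 0. No annotated start site was held for Hist2h4, H2afx, Hist1h3f and Hist1h2bc, so these counts miss them. The regions of Hist2h4 and H2afx are thus among those with 0. The Hist1h3f region also covers the H2B gene H2bc9, and the Hist1h2bc region the H2A gene H2ac6. The printed Hist1h2ak promoter lies in a region that also covers the H2B gene on its other side. The larger of the Hist1h2be regions (chr13:23620728-23622875) also covers the H1 gene Hist1h1e. The region that gave Hist1h3b its value covers an H2A gene too, and that of Hist1h2bb an H3 gene, so these 2 values are of pairs.

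Regions over repeated copies held few tags. The printed H2bc23 promoter is the same at 300 of 300 bases as that of H4bc24 (chr13:21833493-21833792, plus strand). The 5 regions over such repeated start sites, which include the 3 genes below the count filter, had a median of 11.6 and 6.50 tags per kb in Fgf13cko and 8.67 and 4.34 in controls. The 31 other clustered regions had 97.6 and 94.5 in Fgf13cko and 93.8 and 116 in controls. The authors' peak lists nevertheless had a peak over H2bc23 in every library, with a fold enrichment of 5.78 and 4.43 in Fgf13cko and 5.75 and 6.76 in controls. Counts at these copies are uncertain, since reads of identical copies cannot be told apart, and how multiply aligned reads were counted is not stated in what was used here. Hist2h3c1 is the tested gene among them, and without it the clustered median was 0.31.

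The authors' peak lists show which histone genes were open at all, including those outside the count table. Start sites were held for 62 clustered and 16 variant protein-coding RefSeq histone genes, and for none of Hist2h4, H2afx, Hist1h3f and Hist1h2bc. A peak lay over 55 and 56 of the clustered start sites in Fgf13cko, against 53 and 55 in controls, and over 7 and 7 of the variant ones in Fgf13cko, against 6 and 7 in controls. The lists differ in length, with 64954 and 54373 peaks in Fgf13cko and 38006 and 47148 in controls. Of the clustered start sites 48 had a peak in all 4 libraries and 4 in none: Hist1h4k and the testis genes Hist1h1t, Hist1h2ba and Hist1h2aa. Hist1h3d had a peak in both Fgf13cko lists and neither control list, at fold enrichments of 2.68 and 2.30, which are low values. Hist1h3h and Hist1h1b had one in Fgf13cko 2 and control 2 only. Of the variant genes 6 had a peak in every library and 9 in none, among them the oocyte linker gene H1foo, while H2afy, of macroH2A1, lacked one in control 1 only. H1f0 and H1fx are in the count table through regions beside, and not over, their start sites.

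Regions farther than 1000 bases from a histone start site, which are no members, numbered 23. Of these 2 passed the region test, both higher in Fgf13cko, against 8.02% of all regions. A region named for H2afb1 on chromosome X (chrX:117299389-117300543) lies 285209 bases from that gene, and had 114 and 92.3 normalised tags in Fgf13cko, against 45.3 and 35.7 in controls (log2 fold change 1.35, adjusted p = 0.0156). A region named for the pseudogene H2afy3 (chr15:62189972-62190819) lies in an intron of Pvt1, a non-coding RNA gene beside Myc, and had 173 and 189 in Fgf13cko, against 102 and 101 in controls (0.83, adjusted p = 0.0281). Neither name says that the region acts on a histone gene.

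Genes that supply histones had values on both sides of 0 at their promoters. Of 22 genes for the transcription and processing of clustered histone mRNA, 20 were measured, 0 were called and the median log2 fold change was -0.01. Hinfp, which encodes the factor HiNF-P that binds H4 promoters, had 110 and 131 normalised tags in Fgf13cko, against 154 and 200 in controls (-0.56, adjusted p = 0.128). Npat, which encodes the coactivator of clustered histone genes, had 311 and 260 in Fgf13cko, against 381 and 336 in controls (-0.33, adjusted p = 0.272). Both were on the lower side and neither passed, while over the list 9 values were positive and 11 negative. E2f1, of the S phase programme, had 0.49 (adjusted p = 0.166), and Eri1, an exonuclease that trims histone mRNA, -0.44 (adjusted p = 0.279).

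Among histone chaperones, which carry and exchange histones, 24 of 26 were measured, 1 rose, 0 fell and the median was 0.03. The one that rose was Atrx, an X-linked remodeller that places H3.3 with Daxx, at 102 and 94.8 normalised tags in Fgf13cko, against 37.1 and 53.7 in controls (log2 fold change 1.11, SE 0.24, adjusted p = 0.0323). The H3-H4 chaperone Asf1a (-0.45), the H2A-H2B chaperone Nap1l4 (0.45) and Set (-0.45) did not pass. Of 20 S phase genes 19 were measured, 1 rose, 0 fell and the median was -0.03. Rrm1, the large subunit of the ribonucleotide reductase, rose to 163 and 163 in Fgf13cko, against 76.1 and 95.9 in controls (0.92, SE 0.19, adjusted p = 0.0253). Its partner subunit Rrm2 had 0.70 (adjusted p = 0.0731), the proliferation marker Mki67 0.75 (adjusted p = 0.0757) and the helicase gene Mcm4 -0.55 (adjusted p = 0.0664), so the genes of S phase gave values on both sides. Without control 1 or control 2 edgeR called 0 promoters of any gene, so these calls end there, with 826 and 802 genes at an unadjusted p under 0.05.

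Single markers of cell types changed. In the progenitor and oligodendrocyte lists the other members lay on both sides, while 3 of the 4 measured neuronal markers were positive. Of the 9 measured progenitor markers Fabp7 (log2 fold change 0.81) and Nes (0.81) rose, while Sox9 had -0.26 and the median was 0.04. Of the 4 neuronal ones Syt1 (0.94) and Map2 (0.78) rose, and the median was 0.68. Snap25 had 0.57 (adjusted p = 0.113), and Tubb3 had -0.06 at means of 22.2 normalised tags in Fgf13cko and 23.2 in controls. Of the 4 oligodendrocyte ones Gpr17 (-1.07) fell, while Olig2 had 0.56 (adjusted p = 0.0874) and the median was 0.05. Of the astrocyte markers 0 of 3 passed, and P2ry12, the measured microglial one, had 11.1 and 24.3 normalised tags in Fgf13cko and 39.0 and 26.4 in controls. The part of cell composition in the histone values was not tested.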

How the data were processed

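The authors deposited estimated counts, raw tags that HOMER assigned to merged broad peaks on mm10 without normalisation, per the file headers. They come in steps of 0.5, and 50.2% are whole. Bowtie2, Picard, MACS2 and DESeq2 are also named, per the submitters' processing notes. Their versions, read shifting and duplicate handling are not stated in what was used here. In the deposited peak lists, the score, the fold enrichment (a ratio), the -log10 p and the -log10 q of each peak are the authors' values and only described or filtered peaks.

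Counts of regions within 1000 bases of a start site were summed per gene name and rounded. Mitochondrial regions and 9 regions with no gene name were left out of these sums. All 4 libraries were fitted in edgeR 4.0.16 (R 4.3.3, robust quasi-likelihood, two-sided) with TMM, filterByExpr, no covariates and Benjamini-Hochberg adjustment over all tested genes, at 0.05. DESeq2 1.42.0 was an alternative. Regions were fitted likewise, but from the whole list of 29121 regions, with the mitochondrial and unnamed ones kept. Normalised counts are tags divided by the relative effective library size. Simulated counts were used to test the fitting step. The biological coefficient of variation was 0.127 for promoters and 0.189 for regions. Alternatives changed the test, scaling, filter, window, replicates and pairing.

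Genes named by rule were all measured variant genes, members past the threshold, the 5 most positive, 5 most negative and 5 highest clustered genes, and the called and up to 4 lowest-p genes of each other list. The members and lists were chosen with earlier results of these data known. Intervals and spread cover 2 samples per group. Protein sequences were not used here.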

Additional observations from a re-analysis of the deposited data

How the results depend on the processing

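The clustered median (0.29) and the variant median (-0.24) kept their signs under every alternative run, and the median of all genes stayed within 0.02 of 0. The clustered median was 0.24 with regions within 500 bases. With 1 library left out, the clustered median lay between 0.25 and 0.33, the variant median between -0.38 and -0.14, and their difference (0.53) between 0.41 and 0.71. Calls moved far more. Over all genes, 283 promoters passed, 428 with a loess offset, 431 with a mean of at least 50 counts, 135 by DESeq2 and 0 to 2747 with 1 library left out: 1170 without Fgf13cko 1, 2747 without Fgf13cko 2 and 0 without either control by edgeR, where 826 and 802 had an unadjusted p under 0.05. Of the histone genes, 0 passed, 1 (H2afj) with a loess offset and 1 (H2afj) with a mean of at least 50 counts. With 1 library left out 0 to 13 passed, 4 without Fgf13cko 1 and 13 without Fgf13cko 2. Each such fit takes the lone library to vary like the other group. The cause was not tested. With the replicate number as a block, 370 promoters and 0 histone genes passed. The deviations of same-numbered libraries were weakly correlated (r = -0.16). With 2 libraries per group this cannot show whether the numbers pair them. A crossed pairing, chosen after seeing the data, called 783 promoters and 4 histone genes (H2afj, Hist1h2bb, Hist1h3b and Hist2h4). Of 297 alternative values of the 22 named genes 260 kept sign and side, 19 newly passed and 18 changed sign. Hist2h3c1 (-0.23) had 0.17 within 500 bases. H1f0 (0.00) had -0.0027 with RLE, -0.0072 with library size, -0.0126 with loess, -0.0050 with a mean of at least 50 counts, -0.0106 with the replicate block, -0.0188 with the crossed pairing and -0.0023 within 3000 bases. With 1 library left out, values that changed sign ranged from -0.82 to 0.27 at Hist1h1a, -0.21 to 0.077 at Hist1h2bp, -0.055 to 0.34 at Hist1h2bc, -0.22 to 0.11 at H1fx, -0.20 to 0.12 at H2afy2 and -0.38 to 0.32 at H1f0. At a -log10 q of at least 5, 35 clustered start sites had a peak in control 1, in place of 53. The 2 cultures per group limit what the tests can call.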
